A study of Mus musculus with 2 samples.

Results

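The 9 genes Gzma, Gzmb, Gzmk, Prf1, Nkg7, Klrd1, Klrk1, Klre1 and Eomes, which make up the killing machinery, receptors and a lineage factor of cytotoxic lymphocytes, were followed in mouse lung by single-cell RNA sequencing. They were chosen by symbol, and all 9 were present among the 31053 genes counted in both libraries. For each gene the unique molecular identifiers (UMIs, tags that count captured transcripts) were summed over the cells of a marker-gated type and scaled to CPM (counts per 1000000 UMIs of the sum), and natural killer (NK) cells were compared with CD8 T cells.

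Total lung from mice aged 5 weeks was loaded on droplets of the 10x 3' v3 chemistry. Each of the 2 libraries pooled 3 mice. One carried floxed Lkb1 alleles alone (Lkb1f/f, called control here) and the other carried the same alleles with the Nkx2.1 Cre transgene (Nkx2.1 Cre;Lkb1f/f, called Cre here). Lkb1 encodes a kinase upstream of AMPK, and Nkx2.1 is a transcription factor gene of the lung epithelium that drives the Cre. Since a genotype was read in 1 library only, genotype differences are described with counting error only and carry no test. NK and CD8 T cells came out of both libraries, which allowed a test over n = 2 libraries.

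NK cells and cytotoxic CD8 T cells kill by releasing granules. Perforin opens the membrane of the target cell and granzymes, a family of serine proteases, enter through it and cut proteins that trigger cell death. Release is steered by receptors of the C-type lectin-like Klr family, many of whose genes lie together in one gene complex, and T-box transcription factors such as Eomes act in both cell types. Circulating naive CD8 T cells carry little of this machinery and gain it when they become effector or memory cells, whereas mature NK cells hold it ready.

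NK cells were cells with UMIs of at least 2 of Ncr1, Klrb1c, Klra4, Klra7 and Klra8 and none of Cd3d, Cd3e, Cd3g and Trac. CD8 T cells had at least 2 of 5 T cell receptor complex genes and Cd8a or Cd8b1, with no Cd4, Foxp3 or immature T cell gene and at most 1 NK gate gene. None of the 9 genes served in a gate. The gate genes are also expressed by group 1 innate lymphoid cells, which the NK gate does not set apart. There were 233 NK cells in the control and 393 in the Cre library (1.87% and 2.68% of cells kept) and 458 and 378 CD8 T cells (3.68% and 2.58%). Median depth was 3619 and 2750 UMIs per NK cell and 5837.5 and 3635.5 UMIs per CD8 T cell. Genes outside the gates went with the labels in direction. The T cell gene Cd5 stood at 1.05 and 0.819 CPM in NK cells against 88.6 and 83.5 CPM in CD8 T cells. The interleukin receptor chain gene Il2rb, which is also in a gene list below, stood at 1425 and 1802 CPM against 334 and 403 CPM. The T cell gene Cd28 was less far apart, at 102 and 131 CPM in NK cells against 357 and 421 CPM in CD8 T cells.

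The libraries held 12455 control and 14675 Cre cells after filtering, and 59 cell barcodes occurred in both. Cells with immature T cell genes numbered 15 in the control and 184 in the Cre library and were kept out of the CD8 T gate. Free RNA reached both types: the surfactant gene Sftpc, an AT2 cell product, stood at 1162 and 619 CPM in NK cells and 602 and 546 CPM in CD8 T cells. Summed levels of 4 to 7 markers each of B cells, neutrophils, macrophages, AT2, endothelial and mesenchymal cells ranged from 2.095 to 121 CPM in NK cells and from 5.29 to 119 CPM in CD8 T cells. The part of free RNA in the results was not tested, and levels in B cells, which should lack the 9 genes, are given as the background.

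The granule genes lie on several chromosomes of GRCm38 (GENCODE M21 coordinates). Gzma (ENSMUSG00000023132, chr13:113093825-113100981, minus strand) and Gzmk (ENSMUSG00000042385, chr13:113171608-113225908, minus strand) are neighbours separated by 70.6 kb. Gzmb (ENSMUSG00000015437) lies at chr14:56258838-56262260 on the minus strand and Prf1 (ENSMUSG00000037202) at chr10:61297833-61304680 on the plus strand. Their promoters are shown because these 4 genes carried both extremes of the comparison between NK and CD8 T cells. Each sequence is the 250 bases before the transcription start in RefSeq (GRCm38.p6), written 5′ to 3′ on the gene's own strand, with matches to a T-box core (AGGTGT) or a Runx core (TGTGGT), on either strand, in capitals. The Gzmk start in RefSeq lies inside the longer GENCODE span of the gene.
Gzma: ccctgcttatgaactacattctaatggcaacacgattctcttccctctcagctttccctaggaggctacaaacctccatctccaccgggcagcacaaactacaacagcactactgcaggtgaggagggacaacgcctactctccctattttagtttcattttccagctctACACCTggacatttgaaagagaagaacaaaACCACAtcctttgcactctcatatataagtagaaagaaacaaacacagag
Gzmk: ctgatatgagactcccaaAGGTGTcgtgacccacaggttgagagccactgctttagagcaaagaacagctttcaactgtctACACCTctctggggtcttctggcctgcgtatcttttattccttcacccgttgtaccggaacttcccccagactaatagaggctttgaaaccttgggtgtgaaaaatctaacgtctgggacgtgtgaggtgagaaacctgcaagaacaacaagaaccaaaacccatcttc
Gzmb: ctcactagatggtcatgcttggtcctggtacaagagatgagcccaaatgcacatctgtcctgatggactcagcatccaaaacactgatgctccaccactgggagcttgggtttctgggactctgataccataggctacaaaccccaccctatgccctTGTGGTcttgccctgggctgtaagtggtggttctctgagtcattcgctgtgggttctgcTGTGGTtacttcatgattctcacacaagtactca
Prf1: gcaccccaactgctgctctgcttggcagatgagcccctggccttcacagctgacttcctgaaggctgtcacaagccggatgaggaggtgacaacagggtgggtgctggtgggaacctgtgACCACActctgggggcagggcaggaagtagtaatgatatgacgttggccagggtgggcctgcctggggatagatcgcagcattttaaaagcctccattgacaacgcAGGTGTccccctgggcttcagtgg

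The windows run over chr13:113100982-113101231 for Gzma, chr13:113180966-113181215 for Gzmk, chr14:56262335-56262584 for Gzmb and chr10:61297586-61297835 for Prf1. A match is a run of letters, not a binding site. Both cores were searched on both strands, and although they share the letters TGT no matches overlapped in the 4 windows. Gzma and Prf1 held 1 match to each core, Gzmk held 2 T-box matches and no Runx match, and Gzmb held 2 Runx matches and no T-box match. Of the 8 genes with a RefSeq window, 4 held the T-box letters (Gzma, Gzmk, Prf1 and Nkg7) and 6 the Runx letters (Gzma, Gzmb, Prf1, Nkg7, Klrk1 and Klre1). Among 32851 windows of the same length over all genes, 11.8% held the T-box letters and 14.0% the Runx letters.

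All 9 genes differed between NK and CD8 T cells, 8 of them higher in NK cells and Gzmk alone higher in CD8 T cells. The background was wide: 26.1% of the 8175 genes tested passed (13.3% higher and 12.8% lower in NK cells). The test was edgeR's quasi-likelihood test on the 4 sums with the library as a block, adjusted over all genes tested by Benjamini-Hochberg at 0.05. The median log2 difference of the 9 genes was 2.35, against 0.00 over all genes tested.

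Prf1 encodes perforin, the pore-forming protein. It stood at 1361 and 1292 CPM in NK cells (control and Cre library, in that order from here on), against 78.3 and 60.1 CPM in CD8 T cells. Both NK values lay far above both CD8 T values, and the libraries differed little. NK cells had 17.4-fold more in the control (95% interval 15.1 to 20.1, counting error only) and 21.5-fold more in the Cre library (17.4 to 26.9). edgeR's quasi-likelihood test put the log2 difference at 4.005 (adjusted p = 1.33e-26), the largest of the 9 genes.

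Granzyme A, a protease that cuts after basic residues, is encoded by Gzma. Its level in NK cells was 12218 and 9139 CPM, and in CD8 T cells 2148 and 502 CPM. Every NK value exceeded every CD8 T value, but the CD8 T values of the libraries lay 4.28-fold apart. The fold of NK over CD8 T cells was therefore 5.69 (5.51 to 5.87) in the control and 18.2 (16.9 to 19.6) in the Cre library. Over both libraries the log2 difference was 3.08 (edgeR, adjusted p = 1.09e-17).

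Granzyme B cuts after aspartate and activates caspases. For Gzmb the NK values were 1299 and 829 CPM and the CD8 T values 395 and 116 CPM. The groups did not overlap, and again the spread between libraries was wider in CD8 T cells. NK cells were 3.29-fold (3.03 to 3.57) higher in the control and 7.18-fold (6.10 to 8.48) higher in the Cre library, with a log2 difference of 1.96 in edgeR (adjusted p = 1.36e-14).

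Gzmk went the other way. Its product, granzyme K, is a protease known from memory and effector-memory CD8 T cells. NK cells held 6 UMIs in the control and 10 in the Cre library (6.29 and 8.19 CPM), while CD8 T cells held 207 and 61 (73.1 and 40.7 CPM). CD8 T cells were 11.6-fold (5.25 to 32.0) and 4.97-fold (2.53 to 10.9) higher, a log2 difference of -3.14 for NK minus CD8 T cells in edgeR (adjusted p = 5.05e-11). The 2 neighbouring granzyme genes on chromosome 13 thus differed between the types in opposite directions, Gzma by 3.08 and Gzmk by -3.14 on the log2 scale.

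Nkg7 (ENSMUSG00000004612, chr7:43437073-43438249, plus strand) encodes a membrane protein of the granules needed for their release. It was read at 3373 and 2633 CPM in NK cells and 1065 and 515 CPM in CD8 T cells, without overlap. The fold was 3.17 (3.01 to 3.33) in the control and 5.12 (4.73 to 5.54) in the Cre library, and edgeR gave 1.76 on the log2 scale (adjusted p = 1.43e-17).

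**Figure D1:**
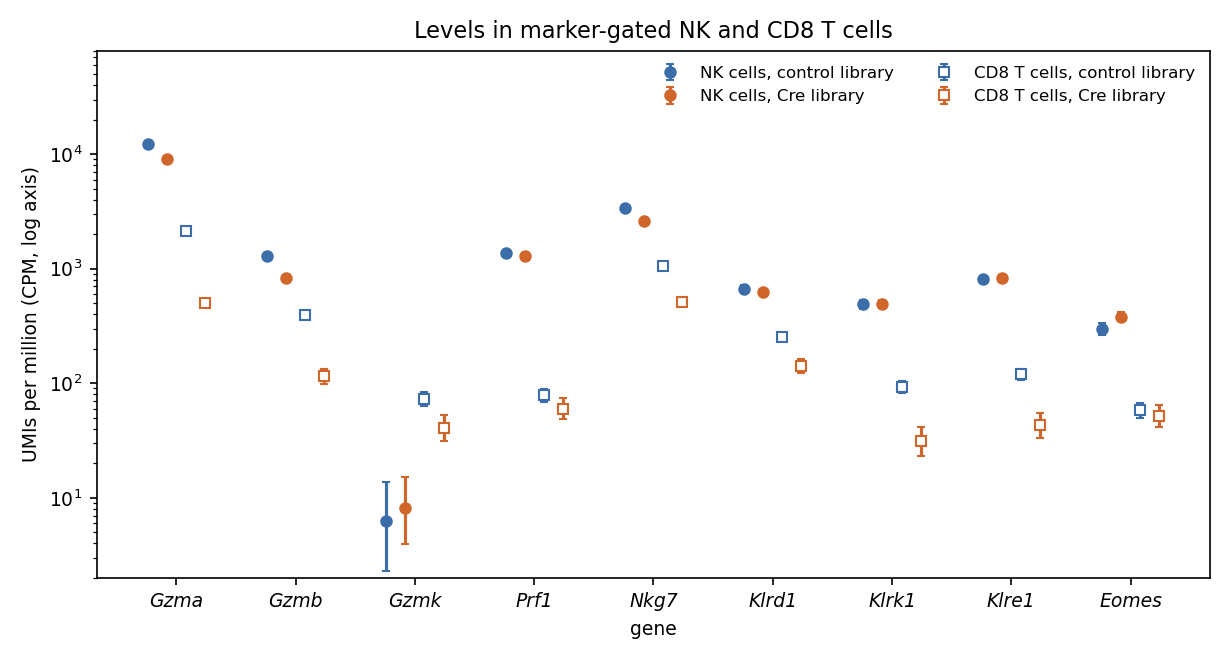
Level of each of the 9 genes (x axis) in CPM on a log axis, in NK cells (filled circles) and CD8 T cells (open squares) of the control and the Cre library. Bars are exact 95% Poisson intervals and cover counting error only. For 8 genes both circles lie above both squares; for Gzmk the squares, at 73.1 and 40.7 CPM, lie above the circles.

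The 3 receptor genes lie within 46.0 kb on chromosome 6: Klre1 (ENSMUSG00000050241, chr6:129577905-129585827, plus strand), Klrd1 (ENSMUSG00000030165, chr6:129591782-129598775, plus strand) and Klrk1 (ENSMUSG00000030149, chr6:129610323-129623864, minus strand). All were higher in NK cells, and their NK levels were nearly the same in both libraries. Klrd1 encodes CD94, the chain that pairs with NKG2 receptors. It stood at 661 and 625 CPM in NK cells and 251 and 141 CPM in CD8 T cells, folds of 2.63 (2.36 to 2.94) and 4.44 (3.804 to 5.19). Its log2 difference of 1.499 was the smallest of the 9 genes (edgeR, adjusted p = 9.45e-13).

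Klrk1, the gene of the activating receptor NKG2D, had NK values of 491 and 489 CPM. In CD8 T cells it stood at 92.8 and 31.4 CPM. NK cells were thus 5.29-fold (4.54 to 6.18) higher in the control and 15.6-fold (11.6 to 21.4) higher in the Cre library, with a log2 difference of 2.73 (edgeR, adjusted p = 9.31e-16). For Klre1, a receptor gene of the same complex, the values were 813 and 822 CPM in NK cells and 119 and 43.4 CPM in CD8 T cells. The folds of 6.82 (5.99 to 7.77) and 18.9 (14.7 to 24.7) and the log2 difference of 3.101 (edgeR, adjusted p = 5.85e-18) were close to those of Gzma.

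Eomes (ENSMUSG00000032446, chr9:118478212-118486132, plus strand) encodes a T-box transcription factor of NK and memory CD8 T cells. It stood at 299 and 383 CPM in NK cells and 58.2 and 52.1 CPM in CD8 T cells. The folds, 5.13 (4.22 to 6.25) and 7.34 (5.77 to 9.46), overlapped in their intervals, unlike those of Gzma, Gzmb, Nkg7, Klrd1, Klrk1 and Klre1. The log2 difference was 2.35 (edgeR, adjusted p = 8.31e-17).

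The p-values rest on 4 sums with 1 residual degree of freedom and a spread borrowed across genes, and the libraries they are taken over differ in genotype. Over the alternatives that tested a gene its adjusted p stayed at or under 0.0357, with edgeR or DESeq2, and with whole clusters in place of gates Gzmk was higher in NK cells, by 2.12 on the log2 scale, and the other 8 genes differed by 2.39 to 7.92. In that alternative the cells taken as CD8 T left out the cluster that held 203 of the 207 control and 57 of the 61 Cre Gzmk UMIs of gated CD8 T cells. With plain CPM in place of TMM scaling the median gene moved up by 0.24 (log2) in NK cells, and 2048 genes passed as higher and 709 as lower, 74.3% higher against 50.9%, while the directions of the 9 genes were the same. The folds within each library are on the plain CPM scale.

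Related genes were read from 5 lists. Of 10 tested genes of granule proteases and contents, 6 were higher in NK cells and 2 lower, with a median log2 difference of 0.82. Serpinb9, an inhibitor of granzyme B, was higher by 2.85 (954 and 842 CPM against 140 and 72.8 CPM), and the related Serpinb6b by 2.30 (730 and 774 CPM against 150 and 107 CPM). The 2 lower genes were the granzyme gene Gzmm, by -2.31 (11.5 and 9.83 CPM in NK cells), and the death ligand gene Tnfsf10, by -1.49. Tnfsf10 was near the floor, at 3.14 and 4.91 CPM in NK cells against 7.41 and 12.0 CPM (edgeR, adjusted p = 0.0413). In control NK cells 3 counts would be 3.14 CPM. Gzmm, like Gzmk, thus had its higher level in CD8 T cells.

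Of 8 tested genes of granule release 3 were higher in NK cells and 1 lower, with a median of 0.24. Stx11, a membrane fusion protein gene, differed by 0.88, Rab27a, a vesicle transport GTPase gene, by 0.72, and Lyst, the granule-size regulator, by -1.65. Of 28 other NK receptor and adaptor genes 23 were higher and 2 lower, with a median of 3.11, which was the same with the gene at 0 in CD8 T cells set to its bound. This list holds genes of the Klra and Klrb1 families, to which most NK gate genes belong. CD8 T cells were allowed at most 1 NK gate gene, and T cells with more were kept out. The part of the gates in these differences was not tested. Klrb1b stood at 327 and 330 CPM in NK cells with no UMI in CD8 T cells, at least 475-fold higher against 3 counts over both CD8 T sums. Klri2 was at 229 and 310 CPM in NK cells. Cd96 and Cd226, receptors for nectin-type ligands, were lower, by -1.70 and -0.89.

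Among 14 transcription factor genes of cytotoxic lymphocytes 8 were higher in NK cells and 5 lower, with a median of 0.91. Irf8 was at 2690 and 2601 CPM in NK cells against 8.47 and 10.7 CPM in CD8 T cells. Tbx21, the gene of the T-box factor T-bet, was higher by 2.54, close to Eomes at 2.35. The naive and memory T cell factors Tcf7 and Lef1 were lower, by -3.101 and -2.50. Of 6 secreted signals 5 were higher, led by the chemokine genes Ccl3, by 4.34, and Xcl1, by 3.78, with a median of 2.30. All of these calls were made by edgeR's quasi-likelihood test, adjusted over all genes tested.

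Levels were ordered across 14 gated cell types with at least 20 cells in each library. NK cells had the highest level of 8 of the 9 genes in both libraries, and their counting intervals did not touch those of the next type. The share of all genes led by NK cells in this way was not measured, so the count of 8 has no background. CD8 T cells came second for Gzma, Prf1, Nkg7, Klrd1, Klre1 and Eomes in both libraries, although their intervals overlapped those of γδ T cells for Klrd1 in the control and for Prf1 in the Cre library, where the order was not resolved. For Gzmk, CD8 T cells came first and their interval lay clear of the next type, while NK and CD4 T cells overlapped behind them. B cells, at medians of 3077 and 2040 UMIs per cell, gave 3.87 and 2.91 CPM of Gzma, 0.672 and 0.872 CPM of Gzmb, 4.54 and 4.36 CPM of Prf1 and 3.70 and 2.33 CPM of Nkg7. No Gzmk or Eomes UMI was found in B cells, where 3 counts would be 0.504 and 0.872 CPM.

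Gzmb was also found in a suppressive cell type. Regulatory T cells, which use granzyme B in suppression, stood at 172 CPM (137 to 214) and 135 CPM (101 to 178). In the Cre library this overlapped CD8 T cells, at 116 CPM (98.9 to 134), and γδ T cells, at 103 CPM (61.8 to 160). Few regulatory T cells held these UMIs: 4 of 66 control cells held 62.5% and 5 of 91 Cre cells 69.2%. A Gzmb UMI occurred in 28.8% and 13.2% of regulatory T cells. Nkg7 was also found in γδ T cells, at 306 and 146 CPM, and in CD4 T cells, at 146 and 143 CPM. Both lay well above the Nkg7 level of B cells.

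The receptor genes reached beyond cytotoxic cells. Klrd1 stood at 165 CPM (135 to 199) in dendritic cells of the control and 75.1 CPM (58.5 to 95.1) in those of the Cre library. In the control this overlapped γδ T cells at 181 CPM (124 to 256). Klrk1 stood at 84.1 and 38.1 CPM in dendritic cells and at 96.3 and 75.7 CPM in γδ T cells. These overlapped the 92.8 CPM of CD8 T cells in the control, so the order behind NK cells was not resolved for Klrk1. Klre1, by contrast, was at 4.59 and 7.62 CPM in dendritic cells and was not found in γδ T cells, where 3 counts would be 17.0 and 16.2 CPM. In the Cre library Gzma stood at 276 CPM in γδ T cells, but its 51 UMIs came from 2 of 47 cells, and in the control γδ T cells had none. Gzma was also read at 53.3 and 38.0 CPM in endothelial cells and 53.0 and 19.6 CPM in monocytes or interstitial macrophages, with a UMI in 0.917% to 3.30% of these cells.

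**Figure D2:**
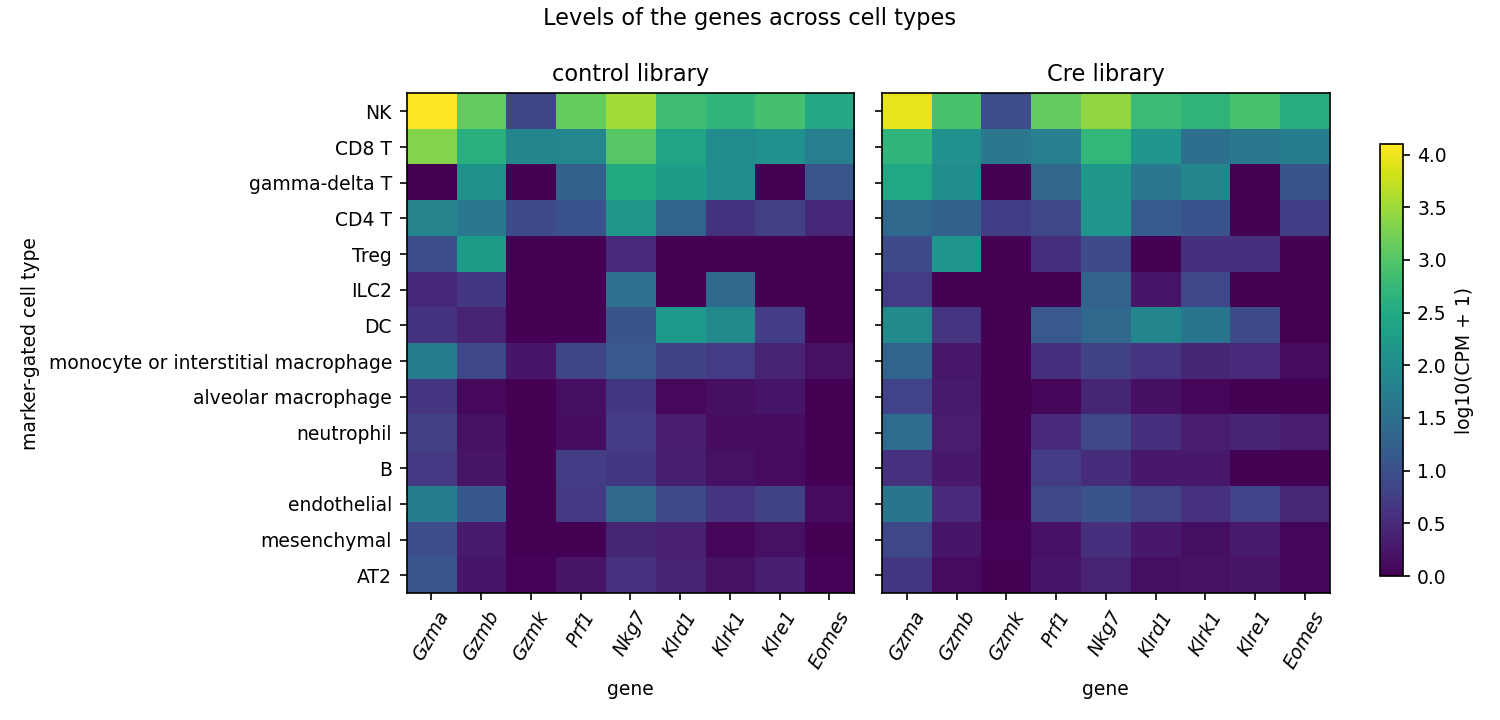
Level of the 9 genes (columns) in 14 marker-gated cell types (rows) of the control (left) and the Cre library (right), as log10 of CPM plus 1. NK cells hold the highest level of 8 genes, CD8 T cells that of Gzmk. Outside the lymphocytes, dendritic cells show Klrd1 and Klrk1, and endothelial cells show Gzma at 53.3 and 38.0 CPM.

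The genes whose profile over the 28 values (14 types in 2 libraries) was most like each member were ranked by Pearson's r of log2(CPM + 10). For Prf1 the closest was Eomes (r = 0.98), and for Eomes the closest were Samd3 and Prf1 (both 0.98). Gzma was closest to Prf1 (0.94) and Klre1 (0.93), and Klrd1 and Klrk1 to each other (0.94). Nkg7 was closest to the chemokine gene Ccl5 (0.97) and the death ligand gene Fasl (0.96). Gzmk was closest to Gzmm (0.97) and Ifngas1 (0.88), and Gzmb to Gm19585 (0.97) and Txk (0.92). The values share libraries, and most types sit near 0, so r describes mainly which lymphoid types hold a gene.

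The share of cells with a UMI differed along with the level. Each cell was thinned to 1000 UMIs so that depth did not differ, which left out 1 and 4 NK cells and 0 and 6 CD8 T cells. At that depth Gzma had a UMI in 98.7% and 96.4% of NK cells, 25.8% and 5.65% of CD8 T cells and 0.126% and 0.227% of B cells (control and Cre). Unthinned, the shares were 98.7% and 97.2%, 29.9% and 11.1%, and 1.45% and 0.728%. Prf1 had a UMI in 66.8% and 68.9% of thinned NK cells against 9.39% and 6.99% of CD8 T cells. For Gzmk the shares were 6.99% and 1.34% of CD8 T cells, and 1 of 389 Cre and 0 of 232 control NK cells. At that depth the latter allows up to 1.29% of cells with a UMI. Unthinned, 2.15% and 2.29% of NK cells had a Gzmk UMI.

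Of the 9 genes, the median NK cell held UMIs of 5 in either library, and 84.9% and 81.7% held 4 or more. CD8 T cells divided differently: 36.5% in the control and 55.1% in the Cre library had none, and 19.2% (88 of 458) and 2.15% (8 of 372) had 4 or more. No B cell had more than 1, and 99.1% and 99.0% had none. Most NK cells therefore held 4 or more of the 9 genes, whereas a minority of CD8 T cells did. No NK cell held all 9 at this depth.

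**Figure D3:**
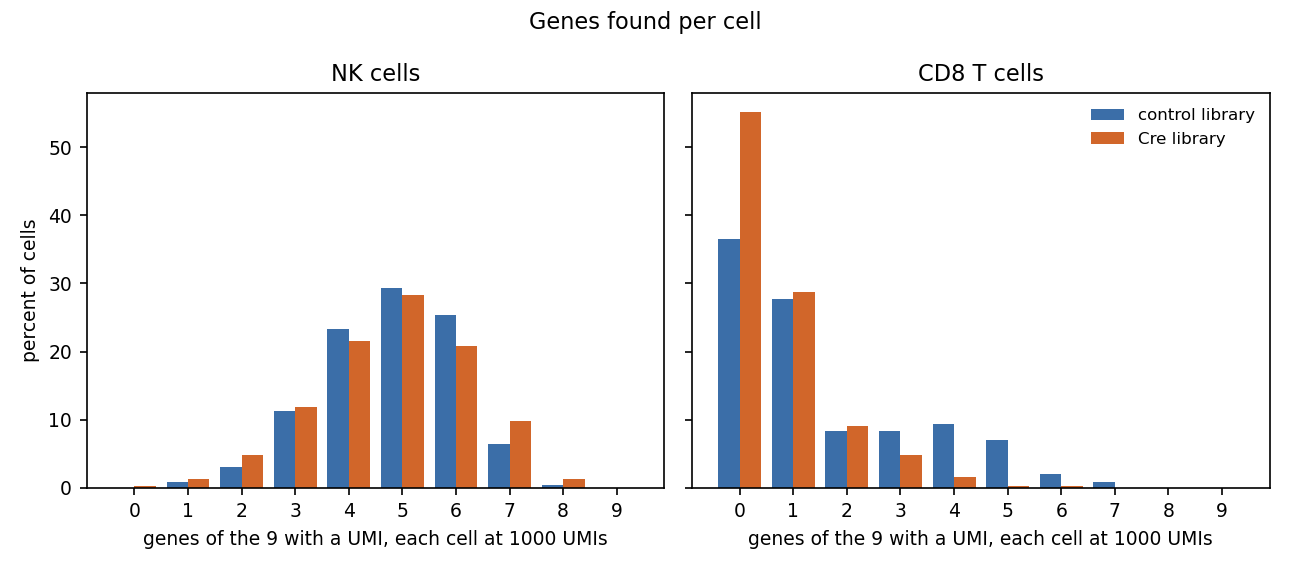
Percent of cells (y axis) by the number of the 9 genes with a UMI (x axis) after each cell was thinned to 1000 UMIs, for NK cells (left) and CD8 T cells (right) of the control and the Cre library. NK cells centre on 5 genes in both libraries, and CD8 T cells peak at 0, at 36.5% in the control and 55.1% in the Cre library.

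Gzma UMIs of CD8 T cells were held by few cells. The top 5% of CD8 T cells, 23 in the control and 19 in the Cre library, held 53.3% and 95.9% of its UMIs, against 11.5% and 13.4% in the top 5% of NK cells. Among cells with a UMI the median was 49 and 27 UMIs per NK cell and 25 and 3 UMIs per CD8 T cell. For Gzmb the top 5% of CD8 T cells held 51.3% and 91.3%, and for Klrd1 24.3% and 31.8%. Nkg7 alone had a UMI in 88.2% of control and 61.6% of Cre CD8 T cells before thinning. The receptor gene Klrd1 and Nkg7 were thus spread more widely over CD8 T cells than Gzma and Gzmb.

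The granule genes occurred together in CD8 T cells. In the control, Gzmb had a UMI in 85.4% of CD8 T cells with Gzma and in 5.0% of those without. In the Cre library 21 of the 42 CD8 T cells with Gzma had Gzmb, and 3.6% of those without. Gzmk, low in NK cells, lay in the same CD8 T cells: 89.3% of control CD8 T cells with Gzmk also had Gzma (16.6% of those without), and 76.2% in the Cre library (7.3%). Among unthinned CD8 T cells with 4 or more of the genes Cd8b1 had a UMI in 81.0% of 158 control and 86.8% of 38 Cre cells, and an NK gate gene in 6.96% and 5.26%. Among those with fewer than 4 the shares were 96.0% and 80.3% for Cd8b1 and 3.0% and 2.94% for an NK gate gene.

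CD8 T cells were then split by genes outside the 9. Naive-marker cells had both Ccr7 and Lef1 and no memory gene. Memory-marker cells had at least 1 of Cxcr3, Itgb1, Cxcr6 and Itgae and not both naive genes. There were 131 naive-marker (28.6% of CD8 T cells) and 139 memory-marker cells (30.3%) in the control and 144 (38.1%) and 92 (24.3%) in the Cre library. Their median depths were 5911 and 5127 UMIs in the control and 3750.5 and 3726.5 UMIs in the Cre library. Whether memory-marker cells were memory cells was not tested. A Prf1 UMI occurred in 51.8% of memory-marker and 19.1% of naive-marker cells in the control, but in 20.7% and 18.1% in the Cre library. For Klrd1 the shares were 69.8% and 54.2%, then 29.3% and 34.0%. Gzma was further apart, at 69.1% and 4.58%, then 19.6% and 7.64%. The folds below are ratios of summed CPM within 1 library with counting intervals and no test.

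By their ratios Gzma, Gzmb, Gzmk, Klrk1 and Klre1 lay furthest apart between these subsets in both libraries. In the control, Gzma stood at 12.7 CPM in naive-marker and 6015 CPM in memory-marker cells, 474-fold (258 to 990) more. Gzmb and Gzmk had 954 and 180 UMIs in control memory-marker cells (1120 and 211 CPM) and none in naive-marker cells, where 3 counts would be 3.805 CPM. In the Cre library Gzma was at 50.1 and 1638 CPM, 32.7-fold (22.4 to 49.6), Gzmb at 8.95 and 228 CPM, 25.5-fold (10.5 to 80.6), and Gzmk at 7.16 and 127 CPM, 17.8-fold (6.52 to 68.0). The receptor genes Klrk1 and Klre1 were also rare in naive-marker cells. They were 29.9-fold (13.5 to 82.6) and 29.7-fold (14.9 to 69.6) higher in memory-marker cells of the control, from 6 and 8 UMIs in naive-marker cells. In the Cre library Klrk1 was 54.9-fold higher, with a wide interval (9.26 to 2225) since naive-marker cells held 1 UMI, and Klre1 6.23-fold (3.08 to 13.9).

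Nkg7, Klrd1, Prf1 and Eomes had smaller ratios. Nkg7 stood at 448 CPM there and 2109 CPM in memory-marker cells of the control, 4.71-fold (4.201 to 5.30), and 2.27-fold (1.89 to 2.73) apart in the Cre library. Klrd1 was 2.20-fold (1.81 to 2.69) and 1.34-fold (0.939 to 1.90) higher in memory-marker cells, and Prf1 4.36-fold (2.86 to 6.87) and 1.76-fold (1.02 to 3.05). Eomes was 3.18-fold (1.98 to 5.30) higher in the control and 1.68-fold (0.9196 to 3.08) in the Cre library. The intervals of Klrd1 and Eomes in the Cre library included 1.

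Against memory-marker CD8 T cells the lead of NK cells differed by gene. Gzmk was lower in NK cells, at ratios of 0.0297 (0.0108 to 0.0660) in the control and 0.0643 (0.0290 to 0.129) in the Cre library. Klrk1 was higher in NK cells by 2.16-fold and 4.98-fold, Klre1 by 2.69-fold and 7.37-fold, and Eomes by 3.22-fold and 5.54-fold. In the control Gzmb was nearest, at 1299 CPM in NK and 1120 CPM in memory-marker cells, a ratio of 1.16 (1.06 to 1.26). The marker rule behind it was shortened after the data were seen and the ratio lay closer to 1 before that, so no difference in Gzmb is read from it. Gzma was 2.03-fold (1.97 to 2.099), Nkg7 1.60-fold (1.51 to 1.70) and Klrd1 1.63-fold (1.43 to 1.87) higher in NK cells. Prf1 was 9.12-fold (7.60 to 11.04) higher, at 1361 against 149 CPM. In the Cre library these leads were 3.63-fold (2.91 to 4.58) for Gzmb, 5.58-fold (5.14 to 6.06) for Gzma and 3.31-fold (2.94 to 3.73) for Nkg7. For Klrd1 the lead was 3.68-fold (2.85 to 4.82) and for Prf1 15.2-fold (10.7 to 22.3), and each lead was larger than in the control. The leads are over unlike cells, since 69.1% of control but 19.6% of Cre memory-marker cells had a Gzma UMI.

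**Figure D4:**
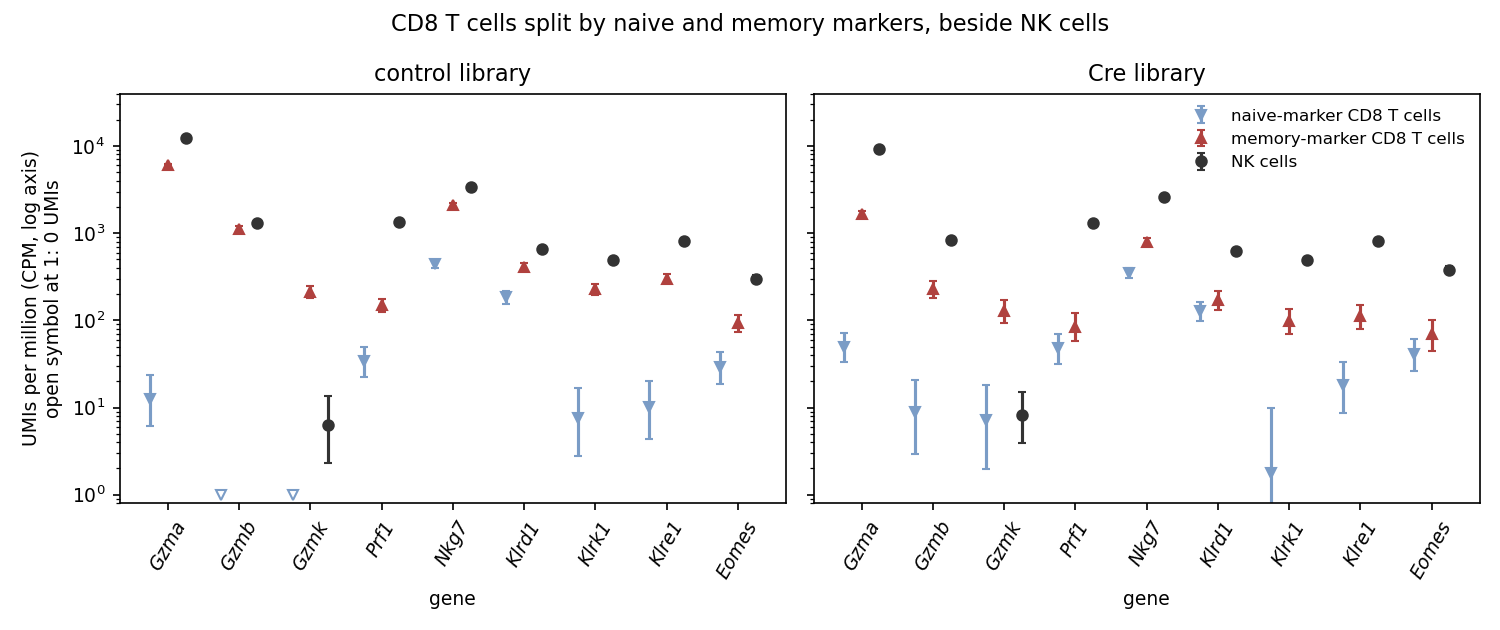
Level of each gene in CPM (log axis) in naive-marker CD8 T cells, memory-marker CD8 T cells and NK cells of the control (left) and the Cre library (right), with exact 95% Poisson intervals. An open symbol at 1 marks 0 UMIs. In the control NK cells lie 9.12-fold above memory-marker cells for Prf1. For Gzmb the ratio is 1.16, from which no difference is read.

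The last comparison set the Cre library against the control within each type. In NK cells 8 of the 9 genes had 20 or more UMIs over both sums, and their ratios of the Cre library over the control ran from 0.638 to 1.28. The intervals of 3 lay below 1 and that of 1 above it. How large a share of all genes had intervals clear of 1 was not measured. Of the 8 genes, Gzmb alone passed 1.5-fold, lower in the Cre library, and none was higher. Among all 7572 genes so measured in NK cells, 6.02% were lower and 17.6% higher by that fold, 23.6% in all. The median ratio over all genes was 1.11, so values near 1 lie slightly below it.

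Gzmb in NK cells stood at 829 CPM in the Cre library against 1299 CPM, a ratio of 0.638 (0.587 to 0.694). Gzma and Nkg7 were also lower, at ratios of 0.748 (0.729 to 0.768) and 0.781 (0.743 to 0.820), short of 1.5-fold. Prf1 at 0.949 (0.881 to 1.02), Klrd1 at 0.945 (0.850 to 1.05), Klrk1 at 0.995 (0.880 to 1.13) and Klre1 at 1.01 (0.9202 to 1.11) had intervals that included 1. Eomes was higher, at 1.28 (1.10 to 1.49). Gzmk had 16 UMIs in all and was not compared.

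In CD8 T cells the ratios lay lower. Of the 9 genes 7 were lower in the Cre library by 1.5-fold or more and none higher, where 5.8% of all 8708 genes measured were lower and 19.2% higher and the median ratio of all genes was 1.14. Gzma was lowest, at a ratio of 0.234 (0.216 to 0.252), from 2148 to 502 CPM. Gzmb stood at 0.292 (0.248 to 0.343), Klrk1 at 0.338 (0.242 to 0.463) and Klre1 at 0.364 (0.275 to 0.476). Nkg7 stood at 0.483 (0.446 to 0.523), Gzmk at 0.558 (0.412 to 0.745) and Klrd1 at 0.562 (0.479 to 0.656). Prf1, at 0.767 (0.594 to 0.984), and Eomes, at 0.894 (0.674 to 1.18), did not pass.

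**Figure D5:**
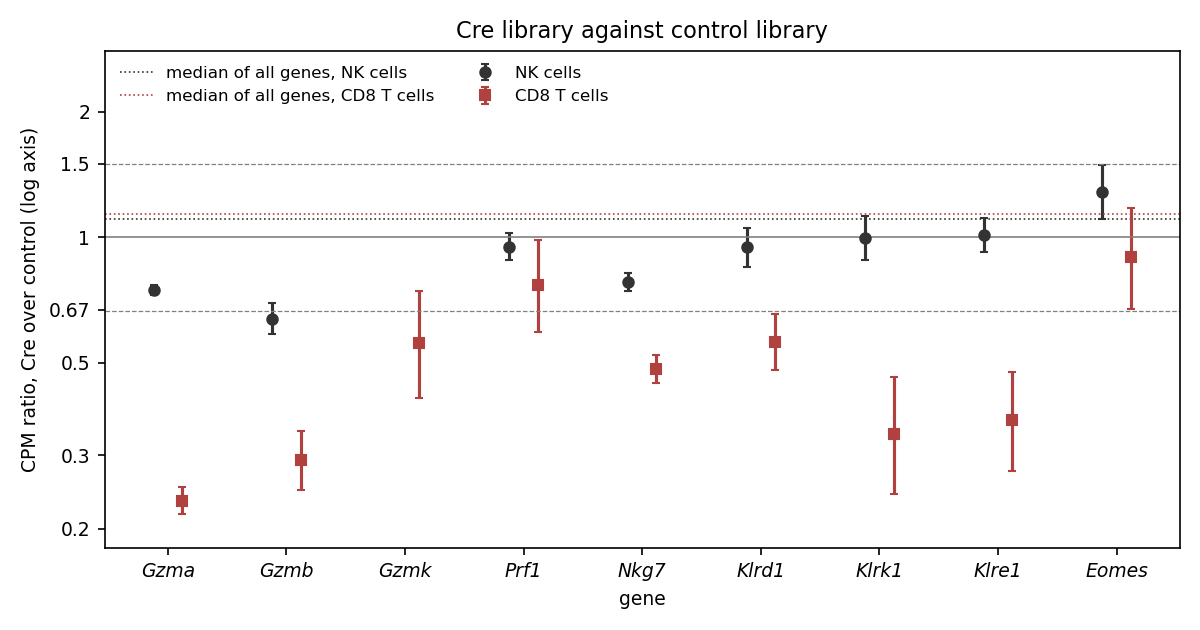
Ratio of CPM in the Cre library over the control (log axis) for each gene in NK cells (circles) and CD8 T cells (squares), with exact 95% intervals for counting error. Dashed lines mark 1.5-fold and dotted lines the median of all genes, 1.11 in NK and 1.14 in CD8 T cells. Gzmk is not drawn for NK cells, where it had 16 UMIs. The CD8 T value lies below the NK value for each of the other 8 genes.

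The make-up of the CD8 T cells moved with these values. Cells with immature T cell genes, 15 in the control and 184 in the Cre library, were outside the gate, but T cells newly past that stage may lack the genes that would keep them out. How many of the Cre CD8 T cells were such cells, and their part in these ratios, was not tested. Naive-marker cells were 38.1% of CD8 T cells in the Cre library (33.2 to 43.2, exact Clopper-Pearson interval) and 28.6% in the control (24.5 to 33.0), and median depth was 3635.5 against 5837.5 UMIs. Within memory-marker cells the ratios of the Cre library over the control were 0.272 (0.2501 to 0.296) for Gzma, 0.204 (0.162 to 0.254) for Gzmb, 0.378 (0.333 to 0.427) for Nkg7, 0.419 (0.316 to 0.549) for Klrd1, 0.431 (0.295 to 0.615) for Klrk1 and 0.370 (0.260 to 0.514) for Klre1. The sums of memory-marker cells came from unlike shares of cells, since 96 of 139 control but 18 of 92 Cre cells had a Gzma UMI, and 103 and 19 a Gzmb UMI. Gzmk was at 0.603 (0.429 to 0.833), Prf1 at 0.570 (0.374 to 0.845) and Eomes at 0.744 (0.458 to 1.17). Within naive-marker cells Nkg7 was at 0.784 (0.655 to 0.936) and Gzma, from 28 and 10 UMIs, at 3.95 (1.86 to 9.12).

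The number of CD8 T genes past 1.5-fold depended on who was counted. It was 7 in the gated cells and 3 when whole clusters took the place of gates. That count was taken over all 595 control and 665 Cre cells of the CD8 T cluster, where the log2 ratio of Gzma was -1.57. The gated CD8 T cells among them, 295 in the control and 274 in the Cre library, had Gzma at 57.0 and 27.6 CPM. In the cluster with most of the other gated CD8 T cells, 161 control and 85 Cre cells, Gzma stood at 5989 and 1712 CPM and Gzmk at 203 and 138 CPM. With stricter gates the log2 ratio of the Cre library over the control in CD8 T cells went from -2.097 to -1.35 for Gzma, from -1.77 to -0.95 for Gzmb, from -1.56 to -0.82 for Klrk1 and from -0.84 to -0.14 for Gzmk. With each cell at 1000 UMIs it went the other way, to -2.75, -2.41, -2.82 and -2.21. Genotype, mice and library cannot be told apart in this comparison.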

How the data were processed

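The authors deposited unscaled counts of UMIs for each gene in each barcode, whole numbers, per the file headers. The submitters' processing notes name Cell Ranger 3.1.0, STAR and mm10, and the matrix header names version 3.0.0. Further upstream steps were not given in the sources used here. Totals were 74219499 UMIs in the control and 81598779 in the Cre library.

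Cells with at least 200 genes and 500 UMIs and at most 20% mitochondrial UMIs were kept, and doublets called by Scrublet in scanpy 1.11.5 (3.09% and 2.70% of barcodes) were removed. Free RNA was not subtracted. Cells were gated by marker genes into 18 types, and cells that passed gates of several lineages (852 and 956) or of none (2107 and 3192) were left out. The 35 genes of the lymphoid gates were left out of tests but stayed in library sizes. The subset markers of CD8 T cells are fewer than planned, a change made after the data were seen: 2 markers are not reported here and were not used. The 9 genes, the gates and the gene lists were chosen with earlier results of these data known. All 9 genes were named in the comparisons of NK with CD8 T cells and of the libraries within each type. Shares of cells and some other descriptions name only part of them. Of each list the 2 highest and 2 lowest among those called were named. Klrh1 and Cd244a of the receptor list were not found by symbol and were not analysed here.

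Counts summed per type and library were tested with edgeR 4.0.16 (R 4.3.3): TMM, filterByExpr, quasi-likelihood fit of library plus type, Benjamini-Hochberg at 0.05. The fit was tested on simulated data. DESeq2 1.42.0 was an alternative. Ratios carry exact conditional 95% Poisson intervals and levels exact Poisson ones. All intervals and the limit of 3 counts cover counting error only. Ratios between libraries needed 20 UMIs over both sums. Leiden clusters (leidenalg 0.10.2, resolution 1.0, 30 components, 15 neighbours) were made without the 9 genes. A cluster was taken as NK or CD8 T where most gated cells were lymphoid and most of those were of that type. Coordinates are from GENCODE M21, to which 30934 of 31053 genes matched by identifier. Promoter windows came from RefSeq and matched 8 of the 9 genes.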

Additional observations from a re-analysis of the deposited data

Results flagged for a closer look

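Gzmb was found in basophil-gated cells, a type too rare to enter the comparisons. The 1 control basophil held 12 Gzmb UMIs and the 9 Cre basophils held 60, from 5 cells, which is 1944 CPM (1004 to 3395) and 2486 CPM (1897 to 3199), for cells gated on Mcpt8, Cpa3, Ms4a2 and Fcer1a. Both counts lie above the limit of 3 counts. The control interval includes the 1299 CPM of NK cells, and the Cre interval lies above their 829 CPM. Klrd1 was found in plasmacytoid dendritic cells, where the 16 control cells held 19 UMIs (202 CPM, 121 to 315) and the 19 Cre cells held 11 (149 CPM, 74.6 to 267). In these cells 6 of 16 and 8 of 19 had a Klrd1 UMI, so the counts did not come from 1 cell.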

How the results depend on the processing

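All 9 genes passed, in the direction reported, under the alternatives that tested them, except that Gzmk was below the filter at 1000 UMIs per cell and reversed to 2.12 (log2) with clusters in place of gates (adjusted p = 0.00271, edgeR; 0.00271 was the highest over its alternatives). With clusters the log2 differences of the other 8 genes grew, to 7.92 for Gzma, 7.12 for Gzmb, 6.75 for Klrk1, 5.84 for Klre1, 5.09 for Prf1, 3.43 for Eomes, 3.09 for Nkg7 and 2.39 for Klrd1. Gzmk in CD8 T cells, Cre over control, had the opposite sign there, at a log2 ratio of 0.34, and Klre1 went from -1.46 to -0.69. Gated CD8 T cells of the cluster taken as CD8 T held 4 Gzmk UMIs in the control and 4 in the Cre library. No reversal between libraries is therefore read from this Gzmk ratio. The number of genes called, 2136, was 3321 with clusters, 1014 at 1000 UMIs per cell (4639 tested), 1082 with no replicate block, that is with the libraries unpaired, and 694 with DESeq2. Leaving out a library left no residual degrees of freedom, so it gives single-library folds and no count of calls: without the control, Gzma was at 4.19 and Klrk1 at 3.96, and without the Cre library 2.51 and 2.40, the other genes keeping their direction too. The count of genes past 1.5-fold between libraries in NK cells, 1, was 2 with an NK gate of 1 gene, with stricter gates and with clusters, and 0 at 2-fold. In CD8 T cells 7 became 3 with clusters, and 5 with stricter gates and at 2-fold. The log2 ratios behind them also moved: with stricter gates Gzma, Gzmb, Klrk1 and Gzmk were at -1.35, -0.95, -0.82 and -0.14, and at 1000 UMIs per cell at -2.75, -2.41, -2.82 and -2.21. An alternative added after seeing the data, CD8 T cells with no NK gate gene, called all 9 genes. The causes were not tested. Depth limits Gzmk in NK cells, at 6 and 10 UMIs, and genes held by few CD8 T cells of the Cre library.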

Other observations

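NK cells were also divided by Cd27 and Itgam (CD11b), whose products mark earlier and later stages of NK cell maturation. There were 23 control and 45 Cre cells with Cd27 alone and 105 and 167 with Itgam alone. Prf1, Gzma, Gzmb and Nkg7 were higher in the latter in both libraries, and Gzmk, with at most 2 UMIs in a subset, was not compared. Prf1 stood at 671 and 689 CPM in Cd27-only and 1647 and 1692 CPM in Itgam-only cells, ratios of 2.45 (1.97 to 3.09) in the control and 2.46 (2.03 to 2.997) in the Cre library. Gzma was higher by 2.03-fold in both (1.89 to 2.17 and 1.89 to 2.18), and Gzmb by 3.01-fold (2.36 to 3.89) and 2.38-fold (1.87 to 3.07). Nkg7 was 1.59-fold (1.41 to 1.81) and 1.30-fold (1.16 to 1.46) higher. Of the receptor genes, Klre1 was 1.34-fold (1.06 to 1.72) and 1.29-fold (1.04 to 1.59) higher. The intervals of Klrd1, Klrk1 and Eomes included 1 in both libraries, with Eomes at 0.999 (0.698 to 1.46) and 0.934 (0.721 to 1.22). These are ratios within 1 library with counting error only.

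Cells with T cell receptor complex genes and at least 2 NK gate genes numbered 36 in the control and 14 in the Cre library. Their Prf1 level, 597 and 566 CPM, lay between that of CD8 T cells and NK cells, and so did Gzma, at 7331 and 4919 CPM. Klrd1 was at 644 and 456 CPM, and in the control it overlapped the 661 CPM of NK cells. Cells in cycle, with 2 or more of Mki67, Top2a, Birc5, Cdk1 and Pclaf, were 40 control and 17 Cre CD8 T cells. They held 47.7% and 76.2% of all Gzma UMIs of CD8 T cells and 52.7% and 65.6% of the Gzmk UMIs. Their median depths were 10040 and 7348 UMIs per cell. Over all genes they held 444928 of 2833613 and 160146 of 1497596 UMIs of CD8 T cells. Gzma stood in them at 6527 and 3578 CPM, against 6015 and 1638 CPM in memory-marker CD8 T cells. In the Cre library 12 of the 17 had a Gzma UMI. Cycling NK cells, 7 and 24, held 4.99% and 9.86% of NK cell Gzma UMIs, and their Prf1 level, 339 and 489 CPM, was below the 1361 and 1292 CPM of all NK cells. Prf1 in cycling CD8 T cells was at 98.9 and 112 CPM.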
